A study of Mus musculus with 9 samples.

Results

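The genes described here are 10 immune checkpoint ligands and receptors, chosen by gene symbol from the 54146 genes of the deposited table. The ligands are Cd274 (PD-L1), Pdcd1lg2 (PD-L2), Cd80, Cd86 and Lgals9 (galectin-9), and the receptors are Pdcd1 (PD-1), Ctla4, Lag3, Havcr2 (TIM-3) and Tigit. RNA-seq was performed on colonic mucosa of 9 C57BL/6J mice at 15 wk of age, 5 ApcMin/+ mice (2 females, 3 males) and 4 ApcMin/+; p16cis/cis mice (3 females, 1 male). All 9 mice carried ApcMin, a germline truncating mutation of the tumor suppressor Apc that gives rise to intestinal adenomas. The p16cis/cis mice also carried on both copies of p16 a knocked-in cis-element that draws DNA methylation to the p16 promoter. This element is in the germline, so leukocytes carried it as well as the epithelium. Groups with p16cis/cis alone or with neither allele were not analysed here.

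Immune checkpoints are pairs of surface or secreted proteins that restrain T cells. PD-L1 on epithelial, tumor or myeloid cells binds PD-1 on T cells, and interferon-γ induces PD-L1 transcription through JAK kinases and IRF1. CTLA-4 competes with the costimulatory receptor CD28 for CD80 and CD86 on antigen-presenting cells, while LAG-3, TIM-3 and TIGIT are carried by activated and exhausted T cells. Galectin-9 is a sugar-binding protein of the gut epithelium and a ligand of TIM-3. The study raised the question of immune evasion in this model, and the comparison addressed whether transcripts of these genes differed between the genotypes.

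The libraries held 13523500 to 17885918 reads assigned to genes. Cdkn2a, which encodes p16, had 0 reads in all 9 mice, so its transcript could not serve as a check of the genotype labels. The mitochondrial share of reads was 8.74 to 15.6% in ApcMin/+ mice and 19.3 to 29.8% in ApcMin/+; p16cis/cis mice, without overlap, and this share and the genotype cannot be told apart. In the 6 markers of colonic epithelium the summed normalized count was 187549 to 319790.5 in ApcMin/+ and 152612 to 175637 in ApcMin/+; p16cis/cis mice, with 0 of the 6 past an adjusted p of 0.05 (limma, Benjamini-Hochberg). Ptprc, the pan-leukocyte gene that encodes CD45, ranged from 30.5 in ApcMin/+ replicate 4 to 750.3 in ApcMin/+ replicate 5, and from 99.8 to 168 in ApcMin/+; p16cis/cis mice. The leukocyte signal thus varied most among the ApcMin/+ mice.

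The promoters of the 2 most abundant members are shown because Lgals9 and Cd274 are both known as interferon-induced genes. RefSeq promoters were found for 8 of the 10 members, Cd86 and Lag3 being the exceptions. Each sequence runs 5′ to 3′ on the gene's own strand, from 250 bases before to 50 bases after the RefSeq start site (GRCm38.p6). The Lgals9 promoter lies on the minus strand at chr11:78984875-78985174 and the Cd274 promoter on the plus strand at chr19:29367188-29367487. Capitals mark matches to an interferon regulatory factor (IRF) element, GAAANNGAAA, searched on both strands.
Lgals9: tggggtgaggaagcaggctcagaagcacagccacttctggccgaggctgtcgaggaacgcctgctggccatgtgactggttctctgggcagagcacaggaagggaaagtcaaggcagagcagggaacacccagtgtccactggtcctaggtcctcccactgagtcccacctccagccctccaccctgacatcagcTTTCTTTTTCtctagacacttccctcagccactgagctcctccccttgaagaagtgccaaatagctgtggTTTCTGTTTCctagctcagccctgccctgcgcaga
Cd274: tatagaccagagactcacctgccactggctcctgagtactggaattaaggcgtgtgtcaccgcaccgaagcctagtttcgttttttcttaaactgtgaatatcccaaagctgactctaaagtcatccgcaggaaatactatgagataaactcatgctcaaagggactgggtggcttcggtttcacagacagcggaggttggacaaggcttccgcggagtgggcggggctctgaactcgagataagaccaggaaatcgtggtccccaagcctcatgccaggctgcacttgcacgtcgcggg
The Lgals9 window held 2 matches, both on the strand opposite to the gene, which read GAAAAAGAAA and GAAACAGAAA and began 55 bases before the start site and at base 16 after it. The Cd274 window and the other 6 promoters held none. Of all 32851 promoters of this length in the table, 1131 (3.44%) held such a match. A match describes letters in a window and was not tested for binding.

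In normalized counts, which are reads scaled by the size factor DESeq2 gave a mouse, 3 of the 10 members had a mean above 10 over the 9 mice, namely Lgals9, Cd274 and Lag3. Of these, Lgals9 and Cd274 were above 10 in 9 of 9 mice and Lag3 in 8 of 9. Cd86 was above 10 in 2 mice and Ctla4, Cd80 and Tigit in 1 mouse each. Pdcd1, Havcr2 and Pdcd1lg2 stayed below 10 in every mouse. Lgals9 alone made up 96.8% of all reads on the 10 members.

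**Figure D1:**
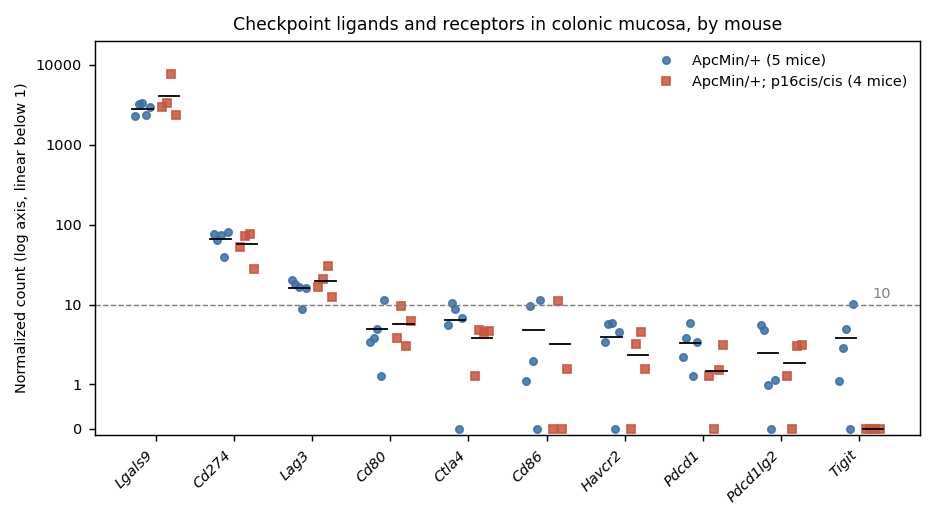
Normalized count of each checkpoint gene in each mouse (vertical axis logarithmic, linear below 1). Circles are ApcMin/+ mice, squares ApcMin/+; p16cis/cis mice, bars the means, and the dashed line marks 10. Lgals9, Cd274 and Lag3 have means above the line, and the genotypes overlap for each gene, with Tigit at 0 in the 4 ApcMin/+; p16cis/cis mice.

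To compare genes with each other, normalized counts were divided by the length of the merged exons in GENCODE M21. On this scale the mean level of Lgals9 was 1573 ± 762 per kb (SD, n = 9), that of Cd274 17.3 ± 5.10 per kb and that of Lag3 8.39 ± 2.80 per kb. The ranges of Lgals9 and Cd274 did not overlap. Cd274 exceeded Lag3 in 9 of 9 mice, although their ranges over mice overlapped (7.79 to 22.3 against 4.22 to 14.3 per kb). The other 7 followed in the order Tigit, Ctla4, Cd80, Pdcd1, Havcr2, Pdcd1lg2 and Cd86, with means between 2.30 and 1.11 per kb. Lag3 was above Tigit in 8 of 9 mice, whereas each later neighbor pair held its order in 2 to 5 of 9 mice, so the order among these 7 was not resolved.

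**Figure D2:**
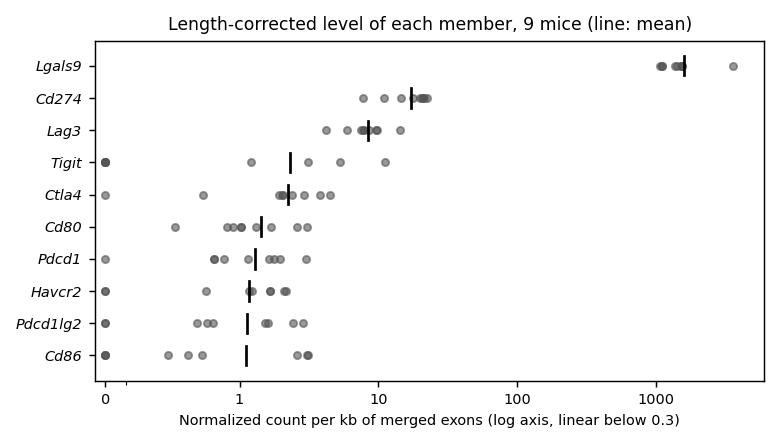
Level of each member as normalized count per kb of merged exons (horizontal axis logarithmic, linear below 0.3), 1 point per mouse and a bar at the mean of 9 mice. Lgals9 stands apart at 1064 to 3538 per kb, Cd274 and Lag3 come next, and the other 7 overlap with each other.

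The comparison between genotypes covered the 14410 genes that reached a normalized count of 10 in at least 4 mice, a filter that 3 of the 10 members passed. None of these 3 was called (limma on the log2 scale, Benjamini-Hochberg adjusted p under 0.05 and fold change over 2), where 3.48% of all genes tested were. At an unadjusted p under 0.05, limma and edgeR gave 0 of these 3, where limma gave 33.2% of all genes tested. Without the filter, limma and DESeq2 gave Tigit an unadjusted p under 0.05. None of the 10 members separated the genotypes without overlap, as 16.2% of genes tested did. The median log2 difference of the 3 tested members was 0.29, and that of all genes tested was -0.00.

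Cd274 encodes PD-L1 and lies on chromosome 19 at 29367455 to 29388095 (GRCm38, plus strand), with Pdcd1lg2 starting 22823 bp downstream. Its normalized counts were 75.9, 63.7, 74.1, 39.4 and 80.6 in ApcMin/+ replicates 1 to 5 and 53.0, 71.8, 76.6 and 28.2 in ApcMin/+; p16cis/cis replicates 1 to 4. The lowest value of each genotype was in its replicate 4, and the genotypes overlapped over most of their range. The means were 66.7 ± 16.5 (SD, n = 5) and 57.4 ± 22.0 (SD, n = 4), from 18 to 76 reads per mouse. The log2 difference was -0.27 with an SE of 0.32, which did not pass the test (adjusted p = 0.599, limma with Benjamini-Hochberg). The 95% interval of the fold change ran from 0.512 to 1.35, which leaves out a doubling in ApcMin/+; p16cis/cis mice. Without ApcMin/+; p16cis/cis replicate 4 the log2 difference was 0.03. Exons of Cd274 share 511 bp with the antisense gene AC119228.1, and whether reads were counted by strand is not given in the sources used here.

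Lgals9, on chromosome 11 at 78962974 to 78984946 (minus strand), had normalized counts of 2273, 3237, 3288, 2345 and 2999 in ApcMin/+ replicates 1 to 5. The ApcMin/+; p16cis/cis replicates 1 to 4 had 2929.6, 3283, 7559.9 and 2347. A single mouse, replicate 3, was high, and the other 3 lay inside the ApcMin/+ range. The means were 2828 ± 487 (SD, n = 5) and 4029.8 ± 2385 (SD, n = 4). The log2 difference of 0.37 (SE 0.28) did not pass the test (limma, Benjamini-Hochberg adjusted p = 0.381), the 95% interval of the fold change ran from 0.853 to 1.96, and without that mouse the difference was 0.02. In the same mouse the interferon-induced chemokine gene Cxcl10 had 66.1 against 0 to 22.8 in the other 8, a value singled out after it was seen.

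Lag3, whose product binds MHC class II and restrains T cells, had 20.1, 18.1, 16.6, 8.90 and 15.9 in ApcMin/+ mice and 16.4, 20.7, 30.1 and 12.5 in ApcMin/+; p16cis/cis mice. The highest value was again in ApcMin/+; p16cis/cis replicate 3. The log2 difference was 0.29 (SE 0.36), which did not pass the test (limma, Benjamini-Hochberg adjusted p = 0.625), and was 0.07 without that mouse. These values rest on 7 to 20 reads per mouse, and the 95% interval of the fold change, 0.704 to 2.11, did not leave out a doubling. Gene position was chromosome 6, 124904361 to 124911705 (minus strand).

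The other 7 members lay below the filter and rested on 0 to 11 reads per mouse. On the log2(normalized count + 1) scale 6 of them had a lower mean in ApcMin/+; p16cis/cis mice and Cd80 had a higher one. That scale understates changes of low genes. The exact two-sided permutation test over all ways to split the mice gave an unadjusted p under 0.05 for Tigit only, and 10 members were examined in this way.

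Tigit (chromosome 16, 43648867 to 43664146, minus strand) encodes a receptor of T and NK cells for the poliovirus receptor CD155. It had 1, 3, 5, 0 and 9 reads in ApcMin/+ replicates 1 to 5 and 0 reads in each of the 4 ApcMin/+; p16cis/cis mice. ApcMin/+ replicate 4 was therefore level with the other genotype, and replicate 5 held 9 of the 18 reads. Summed over mice this was 18 of 84026633 reads against 0 of 56882248. Over the group, 3 reads were taken as the limit that a count of 0 allows (0.0527 CPM). On that limit Tigit was 4.06-fold or more below the 0.214 CPM of ApcMin/+ mice. This bound covers the counting error of the 0 reads only and takes the 18 ApcMin/+ reads as exact. The CPM include mitochondrial reads, whose share was higher in ApcMin/+; p16cis/cis mice, which makes the bound larger than without them. Without ApcMin/+ replicate 5 the bound was 2.499-fold, from 9 of 68281535 reads. The exact permutation p was 0.0476 (unadjusted, two-sided). The log2 difference was -1.81 without a filter on low values, where limma gave an unadjusted p of 0.00709 and a Benjamini-Hochberg adjusted p of 0.0793, and DESeq2 gave an unadjusted p of 0.0237 and no adjusted p. With 1 mouse left out in turn, the log2 difference ran from -1.40 to -2.27.

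Among the other receptors, Pdcd1 had normalized counts of 2.23, 3.80, 5.85, 1.27 and 3.41 in ApcMin/+ mice and 1.26, 0, 1.503 and 3.13 in ApcMin/+; p16cis/cis mice, in all 16 against 4 reads. The genotypes overlapped, and the exact permutation p was 0.0952. Ctla4, the receptor of CD80 and CD86 on activated and regulatory T cells, had 5.58, 10.5, 8.78, 0 and 6.81 against 1.26, 4.79, 4.51 and 4.70. Without ApcMin/+ replicate 4, which had no read, all other ApcMin/+ mice were above the ApcMin/+; p16cis/cis mice in Ctla4. The log2 difference of Ctla4 then went from -0.33 (exact permutation p = 0.675) to -0.95 (exact permutation p = 0.0286, unadjusted, the smallest that 4 against 4 mice allow). Each mouse was left out in turn, and without ApcMin/+; p16cis/cis replicate 1 the log2 difference of Ctla4 was 0.0033. Havcr2 had 3.35, 5.71, 5.85, 0 and 4.54 against 0, 3.19, 4.51 and 1.57, with an exact permutation p of 0.444.

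Of the low ligands, Cd80 had 3.35, 3.80, 4.88, 1.27 and 11.4 in ApcMin/+ mice and 3.79, 9.57, 3.01 and 6.27 in ApcMin/+; p16cis/cis mice (exact permutation p = 0.627). Cd86, its partner on antigen-presenting cells, had 1.12, 9.51, 1.95, 0 and 11.4 against 0, 11.2, 0 and 1.57 (exact permutation p = 0.619). The highest values of these genes were spread over mice of both genotypes. Pdcd1lg2, the PD-1 ligand of dendritic cells and macrophages, had 5.58, 4.75, 0.976, 0 and 1.14 against 1.26, 0, 3.01 and 3.13 (exact permutation p = 0.794). Markers of cells that carry these ligands differed among themselves. The summed count of 4 dendritic cell markers was 7.63 to 47.7 in ApcMin/+ and 13.9 to 20.4 in ApcMin/+; p16cis/cis mice, and 1 of the 4 (Itgax) passed the filter. Of 5 macrophage and monocyte markers, Adgre1 had 0 reads in all 4 ApcMin/+; p16cis/cis mice and 2 to 6 reads in ApcMin/+ mice, Csf1r had 4.79 to 15.2 against 10.2 to 24.5, and Cd68 had 40.6 to 116 against 21.6 to 41.3. Cd14 (799 to 1615 in ApcMin/+ mice, 1350.4 to 1437 with p16cis/cis) and Itgam (17.8 to 32.9 and 15.0 to 31.3) overlapped in range, and 0 of the 4 tested passed an adjusted p of 0.05 (limma, Benjamini-Hochberg). Their part in the ligand values was not tested.

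Some of the low members varied with the leukocyte signal from mouse to mouse. In bulk tissue, fewer cells of a type and less RNA per cell cannot be told apart. Over the 9 mice and on the log2 scale, Ctla4 followed Ptprc with a Pearson r of 0.89 (exact permutation p = 0.00112) and a Spearman rho of 0.87 (exact permutation p = 0.00451). For Havcr2, r was 0.80 (exact permutation p = 0.00547) and rho 0.78 (exact permutation p = 0.0182), and for Tigit r was 0.77 (exact permutation p = 0.0122) and rho 0.86 (exact permutation p = 0.00661). All 10 members were examined, and the other 7 had r between 0.12 for Lgals9 and 0.70 for Cd86. The r of Cd86 had an exact permutation p of 0.0283 and its rho of 0.66 one of 0.0632, while Pdcd1 had a rho of 0.78 (exact permutation p = 0.0172) and an r of 0.49 (exact permutation p = 0.1704). Pdcd1lg2 had an r of 0.52 (exact permutation p = 0.150) and a rho of 0.52 (exact permutation p = 0.156). Without the 2 mice farthest from the median of Ptprc, ApcMin/+ replicates 4 and 5, r was 0.88 for Ctla4, 0.74 for Havcr2 and 0.74 for Tigit. That of Cd80 went from 0.66 to -0.24 and rested on those mice. For Tigit all 4 ApcMin/+; p16cis/cis mice were at 0 reads, so its 0.74 cannot be told apart from the difference between genotypes. In ApcMin/+ replicates 1 to 3 Tigit had 1.12, 2.85 and 4.88 at Ptprc levels of 276, 457 and 227. With each genotype's mean taken out, r was 0.89, 0.78 and 0.84 for Ctla4, Havcr2 and Tigit, where Tigit varied among the ApcMin/+ mice only. Cd274 had an r of 0.55 (exact permutation p = 0.136) and a rho of 0.55 (exact permutation p = 0.133). These points share 1 library per mouse and counts of a few reads.

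**Figure D3:**
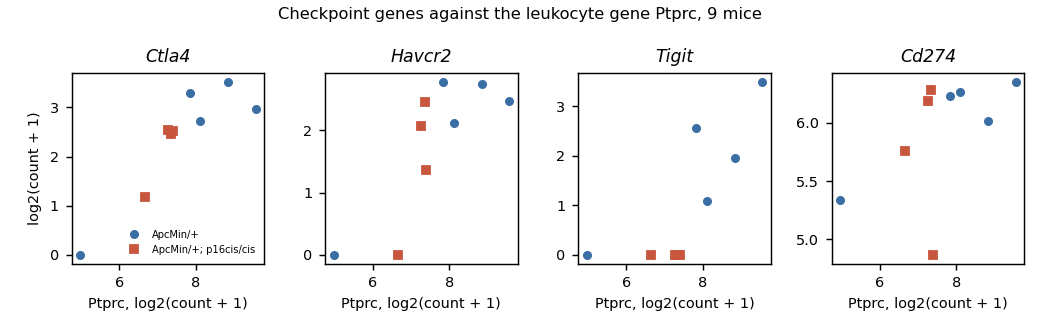
Log2(normalized count + 1) of Ctla4, Havcr2, Tigit and Cd274 against that of Ptprc in 9 mice, circles for ApcMin/+ and squares for ApcMin/+; p16cis/cis. The first 3 genes follow Ptprc (r = 0.89, 0.80 and 0.77), Cd274 less closely (r = 0.55), and Tigit is at 0 in the 4 ApcMin/+; p16cis/cis mice at Ptprc levels between those of ApcMin/+ replicate 4 and the other ApcMin/+ mice.

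Taken relative to Ptprc in each mouse, the log2 differences between genotypes were 0.98 for Lag3 (exact permutation p = 0.198), 0.98 for Cd80 (exact permutation p = 0.151) and 1.07 for Lgals9 (exact permutation p = 0.262). Ptprc itself had a log2 difference of -0.70 (exact permutation p = 0.476), which raised each of these values. Before this scaling the differences of Lag3, Cd80 and Lgals9 were 0.29, 0.28 and 0.37. None of the 10 members passed an unadjusted p of 0.05 relative to Ptprc. For Tigit, at 0 reads in 5 mice, the pseudocount sets such a ratio, and its size is not given. Its exact permutation p was 0.0714 relative to Ptprc and 0.0159 relative to Cd3e. In the mice at 0 reads the ratio reflects the level of Ptprc or Cd3e alone. These p-values therefore cannot show a difference in Tigit per leukocyte or T cell. Cd86, at 0 reads in 3 mice, shares this limit in part. Cd274 had 0.43 (exact permutation p = 0.611). Relative to Cd3e, a chain of the T cell receptor complex, Pdcd1, Ctla4, Lag3 and Havcr2 had differences between -1.05 and 0.11 with exact p-values of 0.135 or more. The summed count of 5 T cell markers was 41.9 to 620 in ApcMin/+ mice and 178 to 326 in ApcMin/+; p16cis/cis mice, that of 4 B cell markers 16.5 to 631 and 17.2 to 162, and that of 3 NK cell markers 1.27 to 26.6 and 3.79 to 7.98. None of the T and B cell markers tested passed an adjusted p of 0.05 (limma, Benjamini-Hochberg). The part of these cells in the values of the members was not tested.

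The genes most like the abundant members were looked for among 10996 protein-coding genes with a mean of at least 50. For Cd274 they were RP24-142A23.1 (r = 0.94 over 9 mice), Xylt1 (r = 0.92), which starts glycosaminoglycan chains on proteoglycans, and Ccdc112 (r = 0.92). For Lgals9 they were H2-DMb1 (r = 0.95), a subunit of the chaperone that loads peptides onto MHC class II, Mlkl (r = 0.95), the effector of necroptosis, and Sp110 (r = 0.94), a nuclear body protein. Each of the 3 genes nearest to Lgals9 was highest in ApcMin/+; p16cis/cis replicate 3, where H2-DMb1 had 264, Mlkl 805 and Sp110 125. The other 8 mice had 55.9 to 129, 389 to 551 and 55.9 to 85.1. These genes were chosen for a high r with Lgals9, which itself peaked in that mouse, so the shared peak follows from the choice. For both members the r named are the highest among 10996 genes and were not tested against chance.

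Beyond the 10 members, 79 genes of the same pathways were examined, of which 58 passed the filter. Of these, 2 were higher and 4 lower in ApcMin/+; p16cis/cis mice at an adjusted p under 0.05 (limma, Benjamini-Hochberg), beside 8.14% and 8.75% of all genes tested. With a fold change over 2 as well, Prdm1 alone was called. At an unadjusted p under 0.05 there were 17 of 58, and 9 separated the genotypes without overlap, 3 higher and 6 lower. The median log2 difference was -0.04. The last of these counts are 29.3% and 15.5% of the 58, near the 33.2% and 16.2% of all genes tested, whereas the 6 genes past an adjusted p of 0.05 are 10.3%, beside 16.9% of all genes tested.

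**Figure D4:**
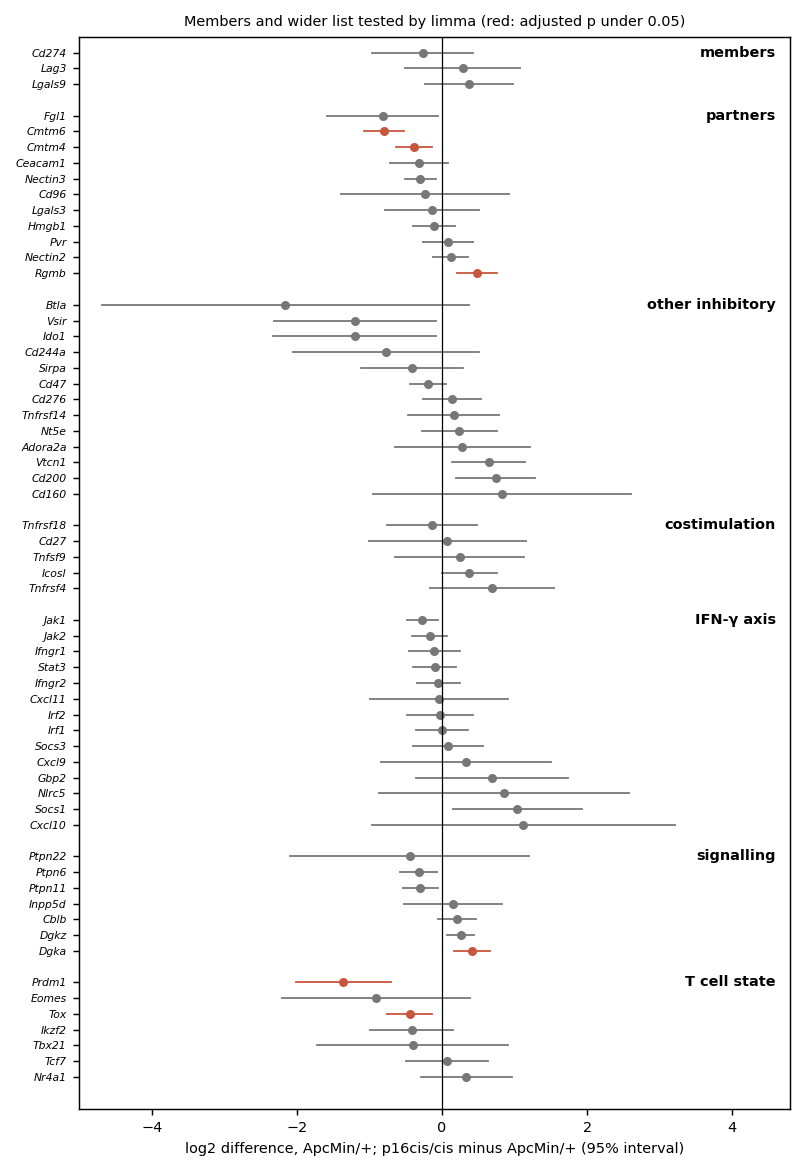
Log2 difference between genotypes (ApcMin/+; p16cis/cis minus ApcMin/+) with its 95% interval for the 3 members and 57 of the 58 further checkpoint genes tested, grouped by role. Red marks an adjusted p under 0.05 (limma, Benjamini-Hochberg), which 6 genes have, 4 lower and 2 higher, and the intervals of the 3 members all include 0.

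Partners and regulators of the members held 3 of the 6 changed genes, from 11 of 13 tested, a share of 27.3% beside 16.9% of all genes tested. Cmtm6, whose product keeps PD-L1 at the cell surface and out of lysosomes, had 2642, 2591, 2882, 2378 and 2343 in ApcMin/+ replicates 1 to 5 and 1917, 1377, 1243 and 1411 in ApcMin/+; p16cis/cis replicates 1 to 4. The genotypes did not overlap, and Cmtm6 fell by 0.80 on the log2 scale (SE 0.13, limma, Benjamini-Hochberg adjusted p = 0.00362). Its relative Cmtm4, which can act on PD-L1 in the same way, had 4537 to 5481 in ApcMin/+ and 3195 to 4555 in ApcMin/+; p16cis/cis mice and fell by 0.39 (SE 0.12, limma, Benjamini-Hochberg adjusted p = 0.0383), a call lost under 13 of 21 other settings, among them the replicate block (adjusted p = 0.0512). Rgmb, a BMP co-receptor that binds PD-L2, had 1277 to 1860.4 in ApcMin/+ and 2027 to 2632 in ApcMin/+; p16cis/cis mice and rose by 0.48 (SE 0.13, limma, Benjamini-Hochberg adjusted p = 0.0259). Fgl1, a soluble ligand of LAG-3, had a log2 difference of -0.82 that did not pass the test (limma, Benjamini-Hochberg adjusted p = 0.126). Cd28 and Cd226, the costimulatory receptors that share ligands with CTLA-4 and TIGIT, lay below the filter with means of 9.32 against 1.43 and 9.27 against 1.11 and were not tested.

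**Figure D5:**
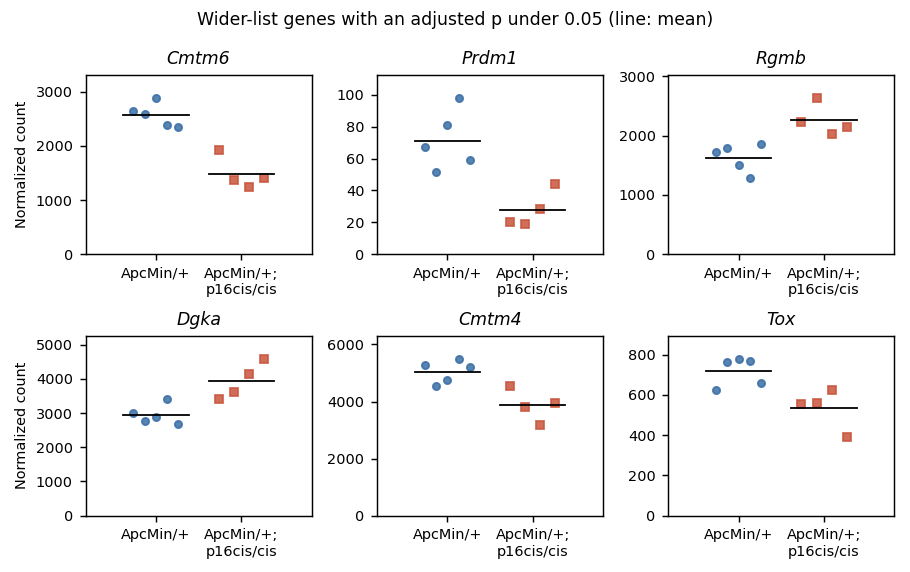
Normalized count (linear axis from 0) in each mouse of the 6 further checkpoint genes with an adjusted p under 0.05 (limma, Benjamini-Hochberg), with bars at the means. Cmtm6, Prdm1 and Tox are lower and Rgmb higher in ApcMin/+; p16cis/cis mice without overlap, and Dgka and Cmtm4 overlap in range.

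Of 13 other inhibitory checkpoint genes tested of 20, 0 passed an adjusted p of 0.05 and 4 (30.8%, beside 33.2% of all genes tested) had an unadjusted p under 0.05 (limma). Btla, an inhibitory receptor of B and T cells, averaged 30.1 ± 27.5 (SD, n = 5) against 4.49 ± 6.16 (SD, n = 4) with p16cis/cis, a log2 difference of -2.16 with an SE of 1.16. Vsir, which encodes VISTA, and Ido1, the tryptophan-degrading enzyme, both had a log2 difference of -1.20 (limma, Benjamini-Hochberg adjusted p = 0.124 and 0.127). Of the 5 costimulatory genes tested of 12, 0 passed at an adjusted p and 0 at an unadjusted p of 0.05 (limma), and the log2 differences of Tnfrsf4 (OX40), Icosl and Tnfsf9 (4-1BB ligand) were 0.69, 0.38 and 0.24.

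In the interferon-γ axis that drives Cd274, 15 of 16 genes were tested. Of these, 0 passed an adjusted p of 0.05 and 2 (13.3%) had an unadjusted p under 0.05 (limma), beside 16.9% and 33.2% of all genes tested. Ifng itself had means of 1.96 ± 1.90 (SD, n = 5) and 2.35 ± 3.04 (SD, n = 4) and was not tested. Socs1, a feedback inhibitor of JAK kinases, had 73.6, 77.0, 82.9, 17.8 and 85.1 in ApcMin/+ mice and 98.5, 159.5, 108 and 133 in ApcMin/+; p16cis/cis mice. Its genotypes did not overlap, but the log2 difference of 1.04 (SE 0.41) did not pass the test (limma, Benjamini-Hochberg adjusted p = 0.0996). Cxcl10 and Nlrc5, the transactivator of MHC class I genes, had log2 differences of 1.12 and 0.86 with standard errors of 0.96 and 0.79.

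Among signaling genes downstream of the receptors, 7 of 8 were tested. Of these, 1 (14.3%) passed an adjusted p of 0.05 and 4 (57.1%) had an unadjusted p under 0.05 (limma), beside 16.9% and 33.2% of all genes tested. Dgka, a kinase that removes diacylglycerol and damps T cell receptor signals, had 2690.1 to 3405 in ApcMin/+ and 3402 to 4573 in ApcMin/+; p16cis/cis mice and rose by 0.41 on the log2 scale (SE 0.11, limma, Benjamini-Hochberg adjusted p = 0.0287), a call lost under 11 of 21 other settings. The 3405 was in ApcMin/+ replicate 4, the mouse with the least Ptprc. The part of T cells in the level of Dgka was not tested. Ptpn6 (SHP-1), a phosphatase recruited by inhibitory receptors, had a log2 difference of -0.33 (limma, Benjamini-Hochberg adjusted p = 0.0721), and Ptpn22 of -0.45 (limma, Benjamini-Hochberg adjusted p = 0.720).

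Of the genes of regulatory and exhausted T cells, 7 of 10 were tested, and 2 (28.6%, beside 16.9% of all genes tested) passed an adjusted p of 0.05 (limma). Prdm1, which encodes the repressor Blimp-1 of plasma cells, T cells and epithelium, had 67.0, 51.3, 81.0, 97.9 and 59.0 in ApcMin/+ and 20.2, 19.1, 28.6 and 43.9 in ApcMin/+; p16cis/cis mice. It fell by 1.36 (SE 0.30, limma, Benjamini-Hochberg adjusted p = 0.0121) without overlap. In Prdm1 the highest value was in ApcMin/+ replicate 4, the mouse with the least Ptprc. The part of leukocytes in the level of Prdm1 was not tested. Tox, a factor of exhausted T cells, had 626 to 776.6 in ApcMin/+ and 390.1 to 625 in ApcMin/+; p16cis/cis mice and fell by 0.45 (SE 0.14, limma, Benjamini-Hochberg adjusted p = 0.04998), a call that was lost under 16 of 21 other settings. In ApcMin/+ replicate 4, where Ptprc and Cd3e were lowest (30.5 and 12.7), Tox had 768. The part of T cells in the level of Tox was not tested. Eomes had a log2 difference of -0.91 that did not pass the test (limma, Benjamini-Hochberg adjusted p = 0.315).

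The mitochondrial share did not overlap between the genotypes, so a fit that includes it cannot separate share from genotype. When the mitochondrial share was added to the fit, all 6 of these calls were lost (limma, Benjamini-Hochberg adjusted p = 0.848 to 0.941), as were those of all genes tested. The log2 differences were then -0.40 for Cmtm4, -1.21 for Prdm1, 0.36 for Dgka, -0.45 for Cmtm6, 0.13 for Rgmb and -0.15 for Tox. In that fit the log2 difference was -0.55 for Cd274, 0.83 for Lgals9 and 0.12 for Lag3, and still 0 members were called (limma, Benjamini-Hochberg). Sex was spread unevenly over the genotypes, and in females only, 2 against 3 mice, the log2 differences were -0.53 for Cd274, 0.57 for Lgals9 and 0.15 for Lag3, with 0 members called (limma, Benjamini-Hochberg). In the wider list Cmtm6 kept an adjusted p under 0.05 in females only, while the other 5 did not, and with sex as a covariate Cmtm6 and Prdm1 did (limma, Benjamini-Hochberg).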

How the data were processed

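RNA was taken from colonic mucosa (colonic crypts, per the methods), and BGISEQ-500 libraries were made from RNA depleted of rRNA and selected with oligo dT. The authors aligned reads with BOWTIE2, estimated gene levels with RSEM and ran DESeq2. The genome build and tool versions of the RNA-seq are not given in the sources used here. The authors deposited 1 table of signal values, normalized counts after division by DESeq2-type size factors, with 1 column per mouse. Within 0.01 reads, 100% of values were whole reads once the smallest step of a mouse was divided out, and 54079 of 54146 gene identifiers were found in GENCODE M21 (GRCm38), which gave positions and exon lengths.

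Genes with at least 10 in at least 4 mice were tested with limma 3.58.1 (trended variance, R 4.3.3) on log2(normalized count + 1), with Benjamini-Hochberg adjustment over all 14410 and calls at adjusted p under 0.05 and fold change over 2. Single values were compared by exact two-sided permutation over all splits of the mice. The script was tested on simulated data. Alternatives were edgeR 4.0.16 (quasi-likelihood, TMM) and DESeq2 1.42.0 on the recovered reads (the latter gave 726 called genes, edgeR 517, limma 501), other scalings, filters, pseudocounts, covariates, thresholds, females only, a replicate block and leaving out each mouse. The members and gene lists were chosen with earlier results of these data known. Genes named from the wider list were those past the thresholds and up to 3 per role with the largest absolute log2 difference among those tested, and Cmtm4, Cd28, Cd226 and Ifng were named after their values were seen. An item of the wider list is counted there but not reported here. Named as most like an abundant member were the 3 protein-coding genes of highest r. Each mouse was 1 replicate. At this depth 3 reads correspond to 0.168 to 0.222 CPM.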

Additional observations from a re-analysis of the deposited data

Results flagged for a closer look

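Of 34 groups checked (17 genes in 2 genotypes), 2 held a mouse far from the others of its genotype, where chance gives about 1 in 20 groups, or 1.7. Cd86 had a normalized count of 11.2 in ApcMin/+; p16cis/cis replicate 2 against 0 to 1.57 in the other 3. Ctla4 had 1.26 in ApcMin/+; p16cis/cis replicate 1, the mouse of that genotype with the least Ptprc, against 4.51 to 4.79 in the other 3. Both rest on 10 reads or fewer per mouse.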

How the results depend on the processing

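The number of members called was 0 in limma, edgeR and DESeq2 and under each of the 23 alternatives run. The 7 low members could be called only by DESeq2 or without a filter, and DESeq2 gave no adjusted p for Pdcd1, Pdcd1lg2 and Tigit. Of the values of single members, 133 kept their direction and their side of the threshold. Another 11, all for Tigit, no longer passed 0.05, 8 changed sign and 1 (Ctla4) came under 0.05. For Tigit, the main value was an unadjusted exact permutation p, whereas DESeq2 and limma without a filter were judged by an adjusted p. Their unadjusted p-values were 0.0237 (DESeq2) and 0.00709 (limma), so these losses reflect the adjustment. Genes called, 501 with limma, were 331 with sex as a covariate, 0 with the mitochondrial share as a covariate (798 at an unadjusted p under 0.05), 286 in females only, 2434 without the fold change threshold and 19 with Bonferroni, and between 281 (without ApcMin/+; p16cis/cis replicate 4) and 755 (without ApcMin/+ replicate 4) with 1 mouse left out. Calls in the wider list, 1 with limma, were 4 with DESeq2, 2 without a filter, 0 with the mitochondrial share, 0 in females only, 1 to 4 with 1 mouse left out (4 without ApcMin/+ replicate 4), and, in settings chosen after seeing the data, 6 without the fold change threshold and 0 with Bonferroni. The cause of these changes was not tested.

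The sign of the log2 difference turned for Cd80 in females only (-0.12), for Ctla4 with a pseudocount of 0.1 (0.10), and, with 1 mouse left out, for Cd274 (-0.44 to 0.034), Pdcd1lg2 (-0.52 to 0.28), Cd80 (-0.010 to 0.60) and Ctla4 (-0.95 to 0.0033). Relative to Ptprc it ranged with 1 mouse left out over -0.75 to 0.48 for Cd86, -0.57 to 0.34 for Pdcd1 and -0.17 to 0.46 for Havcr2, and relative to Cd3e it was -0.51 for Ctla4 and -0.73 for Havcr2. Tigit stayed lower in every alternative run for it (-1.40 to -4.16), and a group wholly at 0 could not reach an exact p under 0.05 in females only (too few mice) or in 8 of the 9 fits with 1 mouse left out (ApcMin/+ replicate 4 being tied at 0). In the wider list the adjusted p (limma, or edgeR and DESeq2 where they were the alternative) stayed under 0.05 in 20 of 21 alternatives for Cmtm6, 19 for Prdm1, 15 for Rgmb, 10 for Dgka, 8 for Cmtm4 and 5 for Tox.

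Same-numbered mice were different animals, and their deviations from the genotype means correlated by 0.02 on average (-0.18 to 0.14), so the numbers did not pair them. With a replicate block 473 genes and 0 members were called. Counts of 0 to 11 reads limit what could be seen for 7 of the 10 members, and without a filter on low values the median of all genes tested moved to -0.12.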

Other observations

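Markers of other cells of the mucosa gave further values. The summed normalized count of 5 macrophage and monocyte markers was 892 to 1716 in ApcMin/+ mice and 1474 to 1518 in ApcMin/+; p16cis/cis mice, most of it from Cd14. The sum of 3 neutrophil markers was 4.75 to 45.8 and 1.26 to 63.1, with its maximum in replicate 3 of the ApcMin/+; p16cis/cis mice, where Lgals9 was also highest. This match was singled out after it was seen. The next highest sum (45.8) was in ApcMin/+ replicate 1, where Lgals9 was lowest (2273). The sum of 3 stromal markers (Acta2, Col1a1 and Pecam1) was 61.0 to 183 and 59.5 to 95.7 (exact permutation p = 0.0397, two-sided, unadjusted). The sum of the 6 epithelial markers was lower in all ApcMin/+; p16cis/cis mice than in any ApcMin/+ mouse and drew most on Car1. By single marker only Epcam did not overlap (27841 to 38616 and 24444 to 26913), and Krt8 and Cdh1 had log2 differences of -0.03 and 0.01.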
